A study of Saccharomyces cerevisiae with 24 samples.

Results

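The 10 budding yeast genes that encode the core histones, the H2A variant H2A.Z and the linker histone were examined in ribosome profiling libraries of Hel2-bound and total ribosomes. They were chosen by identifier: HTA1 and HTA2 (H2A), HTB1 and HTB2 (H2B), HHT1 and HHT2 (H3), HHF1 and HHF2 (H4), HTZ1 (H2A.Z) and HHO1 (linker). These are 10 of 6696 genes in the count tables and 10 of 6663 transcripts in the per-codon tables, and all 10 passed the filters on low values in both. Each is a short coding sequence, with 103 sense codons for the H4 genes, 131 to 136 for the other core histones and HTZ1, and 258 for HHO1. The rule names identifiers only, but the genes were chosen with earlier results of these data known.

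Hel2 binds ribosomes that have run into one another and, as a ubiquitin ligase, marks them for quality control. Lysates were separated into a membrane and a cytosolic fraction, and each fraction gave a library of RNase I footprints recovered with Hel2 by immunoprecipitation (IP) and an input library of all footprints. There were 24 libraries in 12 groups of 2. All cells were MATa with ade2, his3, leu2, trp1, ura3 and can1 alleles, carried HEL2-FTP::natNT2 and were grown in YPD. The HEL2-FTP groups had no further change and comprised membrane IP, membrane input, cytosolic IP and cytosolic input. The same 4 kinds of library were made from strains that also carried srp72::HISMX6 and a plasmid copy of SRP72, a subunit of the signal recognition particle. That copy was pRS415-GIT1p-SRP72-V5, under the GIT1 promoter, in the GIT1p groups, and pRS415-SRP72p-SRP72-V5, under its own promoter, in the SRP72p groups. Per the labels, 1% Triton X-100 was used to solubilise the membrane fraction. The labels do not say whether replicates came from separate cultures, so p-values measure the spread between these libraries, which may be technical.

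HEL2-FTP values are reads scaled to a library total of 1e6 (RPM) at each codon, summed here over the coding sequence. GIT1p and SRP72p values are counts per gene, given here as counts scaled to a library total of 1e6 (CPM), which was 2015928 to 13093023. Inputs were deeper under GIT1p than under SRP72p, and the smallest count of any histone gene in a library was 42. SRP72 itself gave 375 ± 10.1 CPM in cytosolic inputs labelled GIT1p and 142 ± 0.517 CPM in those labelled SRP72p (SD, n = 2 each). LEU2, the marker of the plasmid in both strains, gave 2030.3 and 1934 CPM in cytosolic inputs labelled GIT1p and 69.7 and 60.4 CPM in those labelled SRP72p, which goes against the shared plasmid of the labels. HIS3, mutant in both per the labels, gave 28.7 and 25.7 CPM in cytosolic inputs labelled GIT1p and 572 and 532 CPM in those labelled SRP72p. TRP1, likewise mutant in both, gave 1.56 and 2.44 CPM in those labelled GIT1p and 83.6 and 72.6 CPM in those labelled SRP72p. The genotypes behind both labels are therefore in doubt in every comparison of GIT1p with SRP72p. The SRP72p membrane inputs were unlike each other, with 0.815% and 0.0402% of counts on mitochondrially encoded genes, and so were the GIT1p membrane inputs, with 0.00363% and 0.125%. All 10 membrane marker genes, among them the translocon subunit SEC61, were higher in the membrane than in the cytosolic input of every strain, with median log2 changes of 3.80 (HEL2-FTP), 2.65 (GIT1p) and 2.78 (SRP72p). HEL2 was higher in the HEL2-FTP IPs than in inputs, by log2 2.22 at the membrane (SE 0.05, limma adjusted p = 1.37e-12) and 2.10 in the cytosol (SE 0.05, limma adjusted p = 1.33e-12). In counts HEL2 was higher only in the SRP72p membrane IP (0.60, SE 0.11, edgeR adjusted p = 0.00043). It was lower in the SRP72p cytosolic IP (-0.36, SE 0.12, edgeR adjusted p = 0.0128). With GIT1p labels HEL2 was not called, at -0.02 at the membrane and 0.05 in the cytosol (edgeR adjusted p = 0.872 and 0.706).

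Core histones H2A, H2B, H3 and H4 form the protein core of the nucleosome, around which DNA is wrapped, and are made in bulk when DNA is replicated. In budding yeast each is encoded by a pair of genes, and an H2A gene lies beside an H2B gene, or an H3 gene beside an H4 gene, transcribed away from each other. Both H3 genes encode the same protein, as do both H4 genes, while the H2A and the H2B copies differ slightly. H2A.Z replaces H2A in nucleosomes near promoters, and the linker histone binds where DNA enters and leaves the nucleosome.

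On the R64 (sacCer3) assembly, coordinates cover the coding sequences. HTA1 (YDR225W) lies at chrIV:915530-915928 beside HTB1 (YDR224C) at chrIV:914317-914712. HTA2 (YBL003C) lies at chrII:235394-235792 beside HTB2 (YBL002W) at chrII:236492-236887. HHT1 (YBR010W) is at chrII:256331-256741 beside HHF1 (YBR009C) at chrII:255373-255684, and HHT2 (YNL031C) is at chrXIV:575640-576050 beside HHF2 (YNL030W) at chrXIV:576727-577038. HTZ1 (YOL012C, chrXV:303579-303983) and HHO1 (YPL127C, chrXVI:308828-309604) stand alone.

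How far the copies can be told apart was read from the per-codon values. In all 8 HEL2-FTP libraries, HHT1 and HHT2 held values within 1% of each other at 11 of 137 codons, in the stretches from codon 32 to 38 and from codon 76 to 79. HHF1 and HHF2 did so at 11 of 104 codons (42 to 47 and 85 to 89), and HTA1 and HTA2 at 2 of 133 codons (11 and 12). HTB1 and HTB2 did so at none of their 132 codons. The equal stretches held 17.9% of the HHT1 signal and 13.2% of the HHT2 signal, 11.4% for HHF1 and 11.0% for HHF2, and under 1% for either H2A gene. Reads that match both copies of a gene cannot be assigned to one of them, and how they were counted is not given in the sources used here. Each read is spread over the codons it covers, so such reads can also add to codons beside the equal stretches. Values of single H3 and H4 genes are therefore uncertain at least to that extent, and the 2 H2B genes are the best separated pair.

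H3 genes had the highest levels and HTZ1 the lowest. HHT2 had 538 and 552 RPM in HEL2-FTP membrane IPs, against 861 and 905 RPM in the inputs, and 595 and 630.0 RPM in cytosolic IPs, against 1033 and 1133 RPM in the inputs. HTZ1 had 23.6 and 25.1 RPM in membrane IPs, against 32.6 and 33.5 RPM in the inputs, and 26.8 and 31.5 RPM in cytosolic IPs, against 37.4 and 39.1 RPM in the inputs. Per kilobase of coding length, the cytosolic HEL2-FTP input held a mean of 2634 RPM for HHT2 and 2067 RPM for HHT1. HTB1 (1421 RPM), HHF2 (1341 RPM), HHF1 (1271 RPM), HTA1 (1136.5 RPM) and HTA2 (1113 RPM) followed on the same per-kilobase scale. HTB2 was the lowest core histone gene at 674 RPM per kilobase, above HHO1 at 133 and HTZ1 at 94.4. From HTB1 down to HTA2, the 2 replicates of each gene overlapped those of its neighbour in that order. Replicate 2 was the higher for each of these genes, and the order was the same in both libraries. Differences between neighbours were not tested. The 10 genes together took 0.243% and 0.257% of all RPM in membrane IPs, against 0.385% and 0.410% in the inputs, and 0.258% and 0.277% in cytosolic IPs, against 0.437% and 0.487% in the inputs. With GIT1p labels the 10 genes took 0.138% to 0.182% of counts in IPs and 0.311% to 0.381% in inputs, and with SRP72p labels 0.135% to 0.179% in IPs and 0.288% to 0.405% in inputs. In every strain and fraction the IP and input libraries did not overlap in that summed share.

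**Figure D1:**
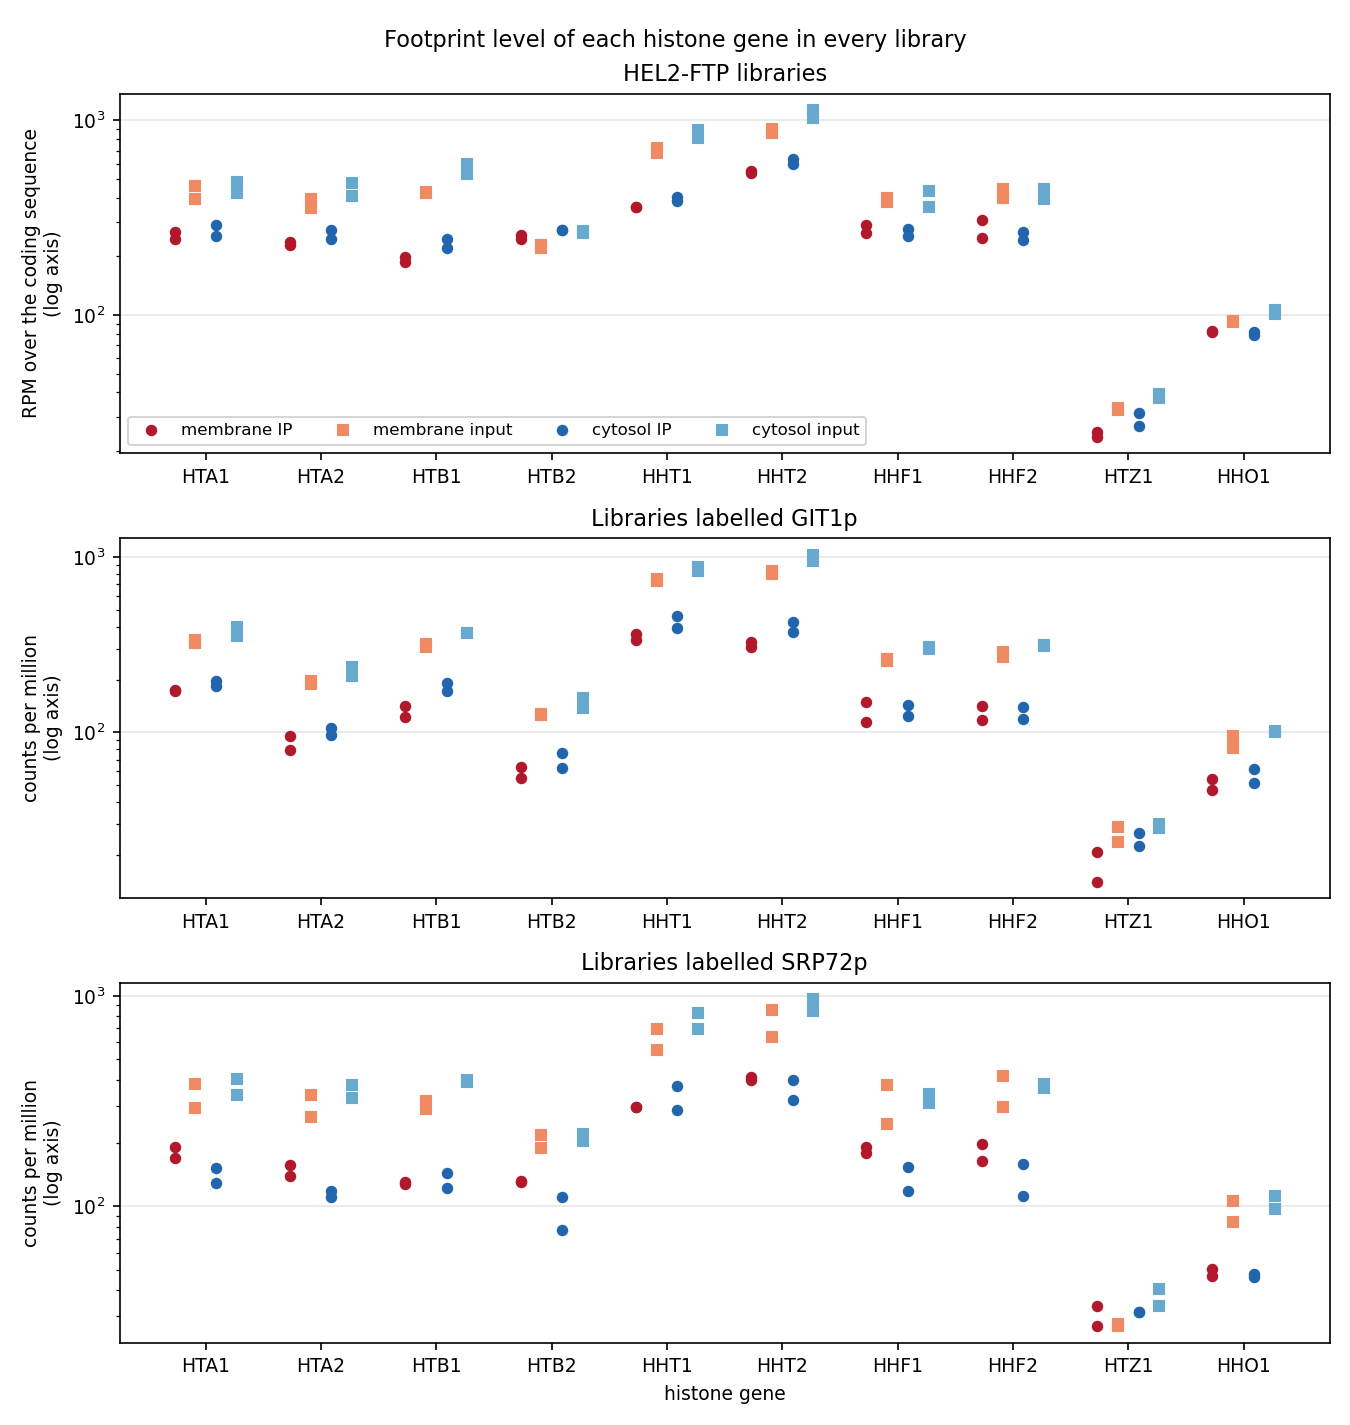
Footprint level of each histone gene in every library, as RPM over the coding sequence (top panel) or CPM (other panels), on log axes. Each point is 1 library; circles are Hel2 IPs and squares are inputs, which lie above the IPs for most genes, HTB2 in the top panel and HTZ1 in the lower panels being the ones where they mix.

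Hel2 IP against input is the comparison that asks which translating ribosomes were bound by Hel2. In the HEL2-FTP cytosol 9 of 10 histone genes were lower in the IP and 1 was not called, where 35.6% of 5532 genes tested were lower. At the membrane 9 of 10 were lower and HTB2 was higher, where 43% of genes were lower and 45.4% higher. Called here means an adjusted p below 0.05, from limma on log2(RPM + 0.5), a scale that understates changes of low genes. The median log2 change of the 10 was -0.65 at the membrane, against 0.02 over all genes, and -0.72 in the cytosol, against 0.34 over all genes.

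The 2 H2A genes had nearly the same level and change. HTA1 had 246 and 266 RPM in membrane IPs, against 394 and 459 RPM in the inputs, and 255 and 290.3 RPM in cytosolic IPs, against 425 and 482 RPM in the inputs. Its log2 change was -0.73 in both fractions (SE 0.09 each, limma adjusted p = 5.27e-06 at the membrane and 4.99e-06 in the cytosol). HTA2 fell by 0.69 at the membrane and by 0.77 in the cytosol on the log2 scale (SE 0.08 each). For both genes each IP library lay below both inputs.

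The H2B pair was split. HTB1 had 188 and 199 RPM in membrane IPs, against 428 and 424 RPM in the inputs, and 220.2 and 246 RPM in cytosolic IPs, against 529 and 597 RPM in the inputs. It had the largest falls of the 10, log2 -1.14 at the membrane (SE 0.07, limma adjusted p = 7.14e-09) and -1.27 in the cytosol (SE 0.07, limma adjusted p = 2.07e-09). HTB2 had 257 and 246 RPM in membrane IPs, against 222 and 229 RPM in the inputs, and 275 and 273 RPM in cytosolic IPs, against 271 and 263 RPM in the inputs. Its log2 change was 0.16 at the membrane (SE 0.05, limma adjusted p = 0.00668) and 0.04 in the cytosol (SE 0.05, limma adjusted p = 0.449), but with each library centred on its median these values were -0.13 and -0.42. Both HTB2 IP libraries lay narrowly above both inputs in each fraction, while both HTB1 IPs lay far below their inputs. Centring moved the median change of all genes by -0.29 at the membrane and -0.45 in the cytosol, so directions for values this near 0 depend on the scaling.

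H3 and H4 genes were lower as well. HHT1 had 357 and 361 RPM in membrane IPs, against 681 and 718 RPM in the inputs, and 387 and 402 RPM in cytosolic IPs, against 809.5 and 889.8 RPM in the inputs. That is a log2 change of -0.96 at the membrane (SE 0.05, limma adjusted p = 4.69e-09) and -1.10 in the cytosol (SE 0.05, limma adjusted p = 1.07e-09). The HHT2 change was smaller in size, -0.69 and -0.82 (SE 0.06 each). For the H4 genes the changes were -0.49 (HHF1) and -0.61 (HHF2) at the membrane and -0.57 and -0.71 in the cytosol, with SE 0.08 to 0.09. HTZ1 fell by 0.43 at the membrane and by 0.39 in the cytosol (SE 0.08 each), and HHO1 by 0.17 and 0.37 (SE 0.05 each), all 4 of them called. HHO1 had 82.1 and 83.1 RPM in membrane IPs, against 92.2 and 93.4 RPM in the inputs, a narrow gap but one without overlap.

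The same comparison was made in counts with edgeR's quasi-likelihood test for the strains that carry SRP72 on a plasmid. With GIT1p labels 9 of 10 histone genes were lower in the IP in each fraction, where 37.2% of 5714 genes were lower at the membrane and 33.2% in the cytosol. With SRP72p labels 9 of 10 were again lower in each fraction, where 33% were lower at the membrane and 31% in the cytosol. The gene not called was HTZ1 in all 4. Its log2 change was -0.14 (SE 0.19) at the membrane and 0.11 (SE 0.16) in the cytosol with GIT1p labels, and 0.27 (SE 0.18) and -0.18 (SE 0.17) with SRP72p labels, from 42 to 391 counts per library. HTZ1 had 26.9 and 33.7 CPM in SRP72p membrane IPs, against 27.7 and 27.0 CPM in the inputs, and these overlapped.

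With the scalings used here, the core histone genes fell furthest in the SRP72p cytosol. HTA2 had 110.3 and 118 CPM in those IPs, against 326 and 376 CPM in the inputs, a log2 change of -1.57 (SE 0.13, edgeR adjusted p = 1.06e-07). HTB1 had 122 and 145 CPM, against 389 and 399.7 CPM, a log2 change of -1.51 (SE 0.10, edgeR adjusted p = 7.20e-09). All 9 called genes lay between -1.10 and -1.57 there, and between -0.48 and -1.08 at the SRP72p membrane. With GIT1p labels they lay between -0.37 and -0.93 at the membrane and between -0.48 and -0.95 in the cytosol, HHT2 having the largest fall in both. HTB2, the exception in HEL2-FTP, was lower than input here: it had 63.2 and 55.3 CPM in GIT1p membrane IPs, against 125 and 127 CPM in the inputs, and 131 and 131 CPM in SRP72p membrane IPs, against 189 and 219 CPM in the inputs. The HTB2 change was -0.65 with GIT1p labels (SE 0.15, edgeR adjusted p = 0.0017). With SRP72p labels it was -0.48 (SE 0.14, edgeR adjusted p = 0.00877). HEL2-FTP values are RPM and the others are counts, from files normalised separately, so the strains are set side by side here and were not tested against each other. Medians of the 10 were -0.64 and -0.69 with GIT1p labels (membrane and cytosol), against -0.24 and -0.04 over all genes, and -0.77 and -1.25 with SRP72p labels, against -0.15 and 0.11 over all genes. With any single library left out, the count of histone genes called was 7 to 10 over these 6 comparisons.

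**Figure D2:**
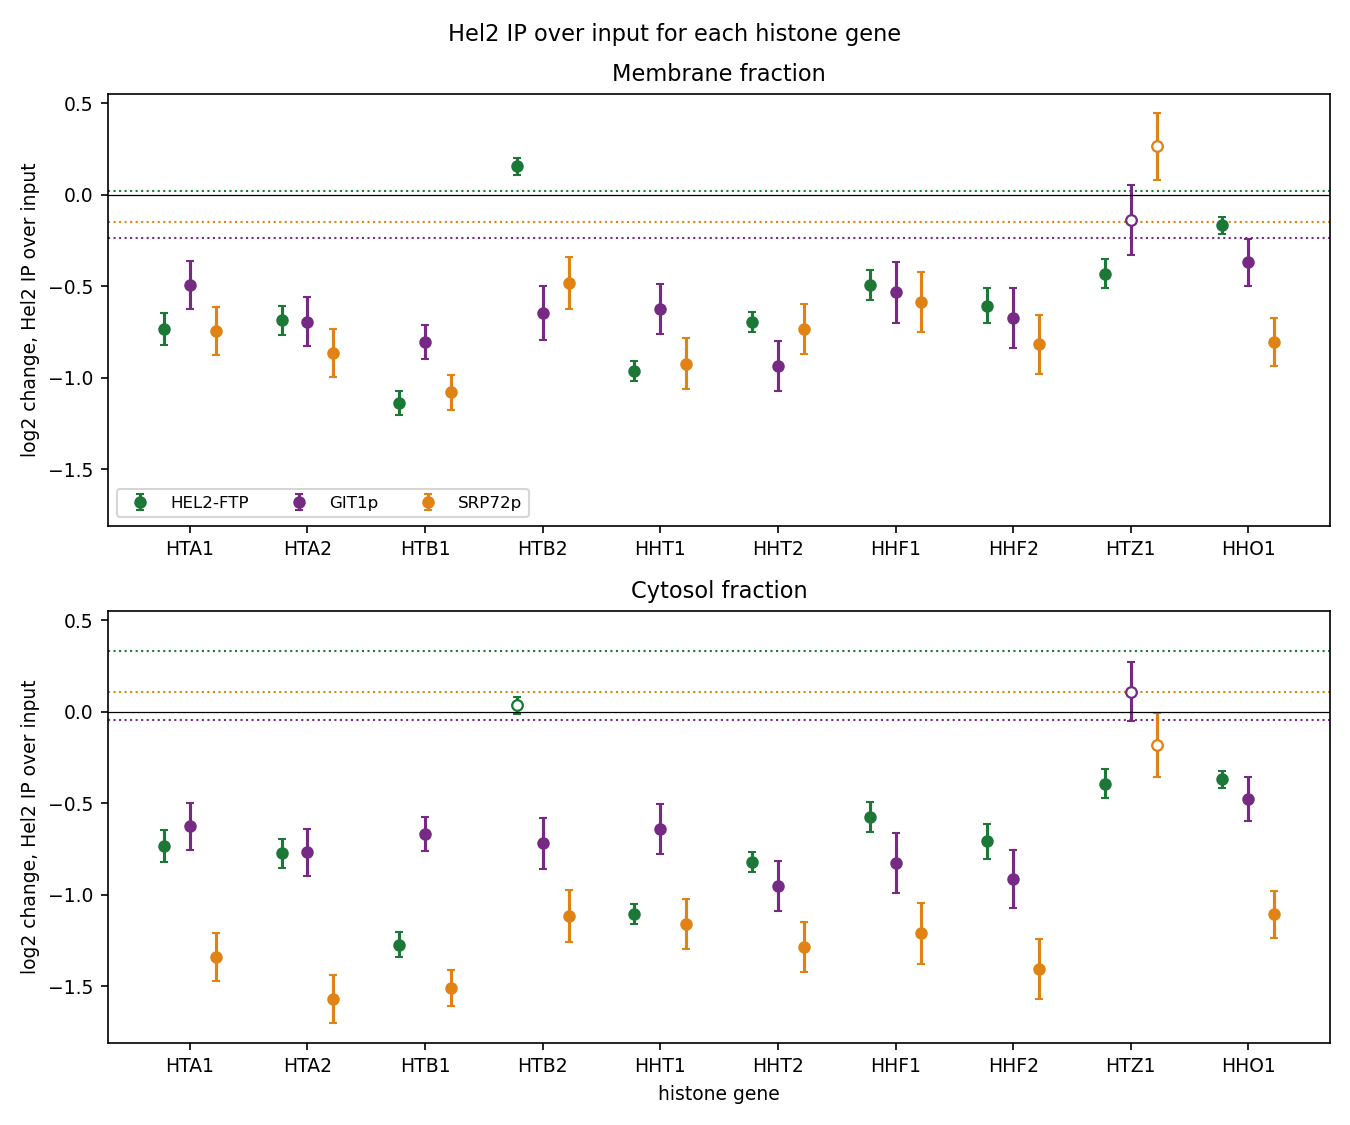
Log2 change of Hel2 IP over input for each histone gene in the membrane (top) and cytosolic (bottom) fraction, with SE bars; open circles were not called and dotted lines are the median over all genes of the same colour. HTB2 in HEL2-FTP, HHO1 at the HEL2-FTP membrane and HTZ1 in the GIT1p and SRP72p libraries stand nearest 0. The SRP72p cytosolic values are the lowest for each gene but HTZ1, down to -1.57, with HEL2-FTP scaled separately.

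Coding length went with the IP/input change across the whole table. Over all 5532 genes tested in HEL2-FTP, Spearman's rho between sense codons and the log2 change was 0.60 at the membrane and 0.65 in the cytosol. It was 0.47 in both fractions with GIT1p labels and 0.50 and 0.54 with SRP72p labels. These are descriptions across genes, which are not independent replicates and share the same libraries. The range of the histone genes, 103 to 258 codons, held 1260 other genes in HEL2-FTP, with a median change of -0.79 at the membrane and -0.75 in the cytosol. Of these other short genes, 72.7% were lower in the membrane IP and 71.0% in the cytosolic IP, while of the 4048 genes above 258 codons 32.0% and 22.4% were lower. The histone medians of -0.65 and -0.72 thus lay close to those of this range, where most members of a list would be called lower. Only HHO1 lies at its upper end, the others having 103 to 136 codons. In a bin of 284 genes with a median of 129 codons, the median change was -0.82 at the membrane and -0.97 in the cytosol. The histone medians lay above these, inside the interquartile ranges of -1.29 to -0.25 and -1.46 to -0.32.

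Within that length range each histone gene could be placed by the share of other genes with a lower change. In the HEL2-FTP cytosol HTB1 lay above 24.6% of them, HHT1 above 32.5%, HHT2 above 47.1%, HTA2 above 49.1%, HTA1 above 50.9% and HHF2 above 51.6%. HHF1 lay above 58.2%, HTZ1 above 65.6%, HHO1 above 66.2% and HTB2 above 77.9%. At the membrane the order was similar at its ends, with HTB1 above 30.6% and HTB2 above 81.5%. In the GIT1p cytosol the range was narrower, from 38.5% (HHT2) to 74.6% (HTZ1). The SRP72p cytosol was the case in which most histone genes stood low within that range. All but HTZ1 (71.1%) lay between 23.8% (HTA2) and 42.2% (HHO1) of 1326 genes. Changes differed by length inside the range, so such shares do not hold length fixed. There, a bin with a median of 122 codons had a median change of -1.04 and a lower quartile of -1.77, and the core histone genes lay between these. A bin with a median of 258 codons had -0.68 and -1.15, and HHO1, at -1.10, lay near that lower quartile. Over the 6 comparisons the shares ran from 23.8% to 81.5%, so no histone gene stood at either end of the genes of that range.

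**Figure D3:**
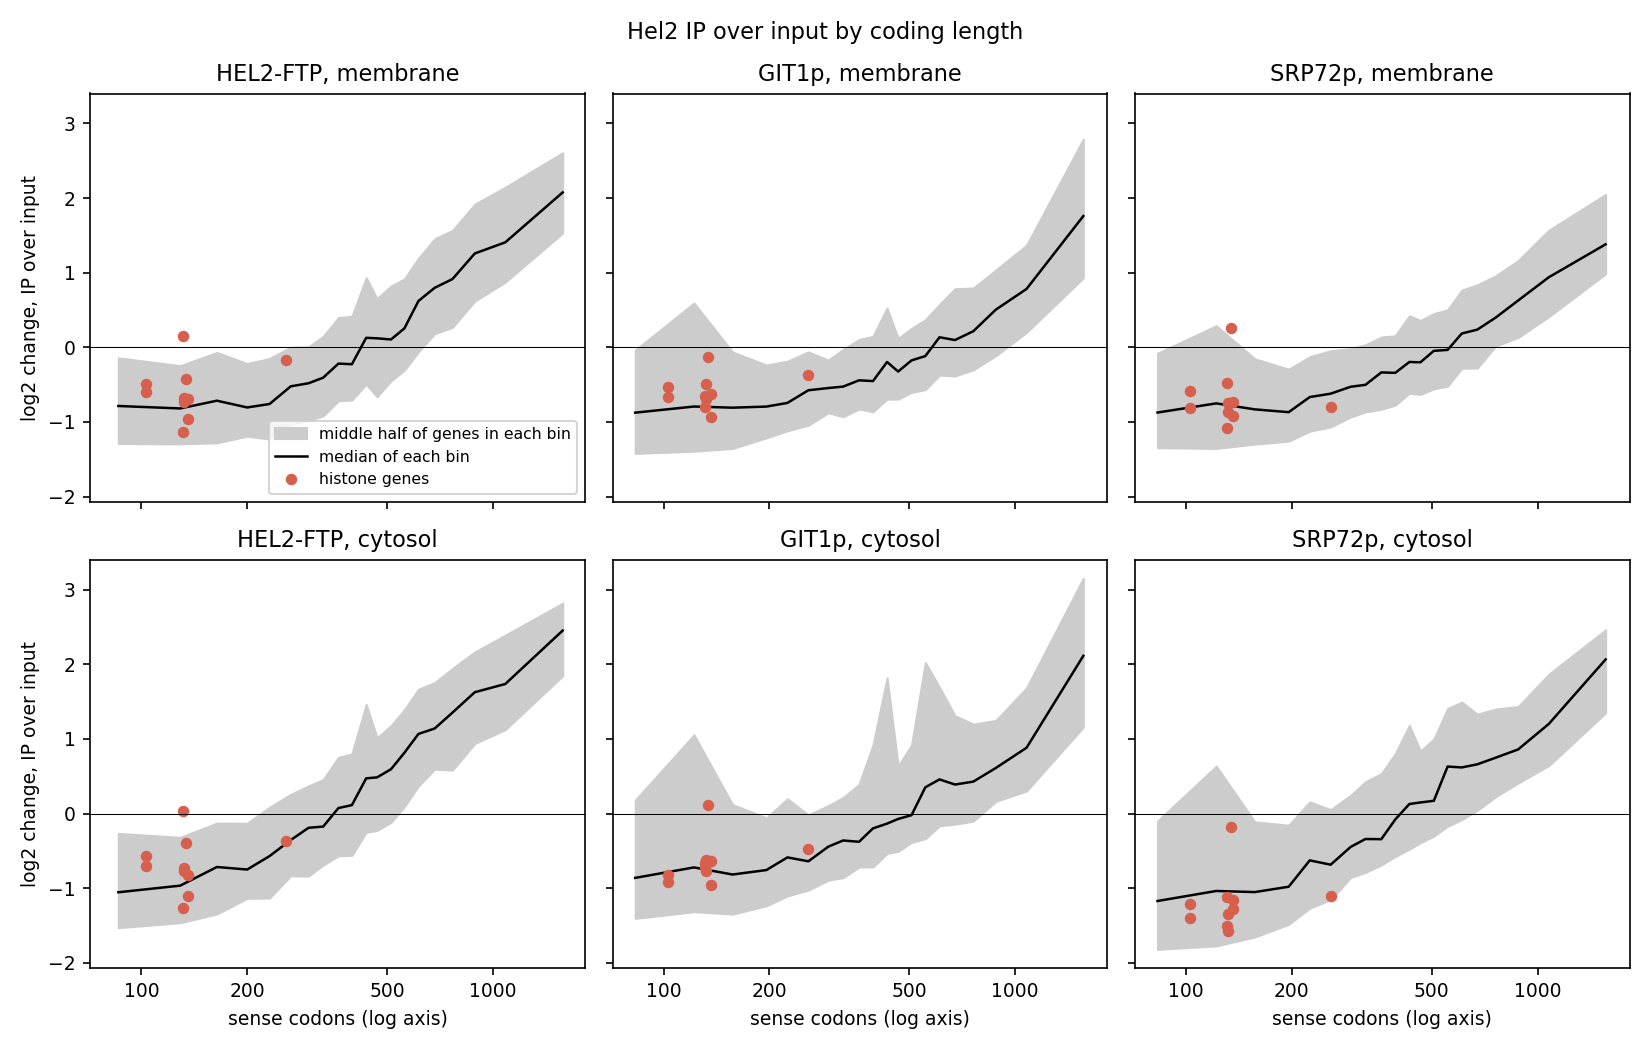
Log2 change of Hel2 IP over input against coding length in sense codons (log axis), for the membrane (top) and cytosolic (bottom) fraction of each strain. The line and grey band are the median and interquartile range of all other genes in 20 bins of equal size, which rise with length, and the histone genes (red) fall mostly inside the band for their length.

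The pairs of copies were then compared as shares of their own sum, a measure in which length and scaling of the library cancel. These tests were chosen after the values were seen. HTB2 made up 57.7% and 55.3% of H2B footprints in HEL2-FTP membrane IPs, against 34.2% and 35.1% in the inputs, and 55.5% and 52.7% in cytosolic IPs, against 33.9% and 30.6% in the inputs. The 4 IP libraries did not overlap the 4 inputs, and the mean share was 21.9 points higher, at 55.3% ± 2.06 against 33.4% ± 1.97 (SD, n = 4 each). The exact two-sided permutation p was 0.0286, the smallest that 4 against 4 allows, or 0.0490 adjusted over the 12 tests (4 pairs in 3 strains). This permutation exchanged libraries across the fractions, as if fraction made no difference. A permutation kept within fractions has fewer splits, and so a larger smallest p, and was not run.

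The H2B share was then taken in the other strains. With SRP72p labels HTB2 held 50.2% and 50.6% in membrane IPs, against 39.4% and 40.9% in the inputs, and 38.8% and 43.4% in cytosolic IPs, against 34.5% and 35.5% in the inputs. Each fraction on its own showed the IPs above the inputs, but over both fractions the difference of 8.18 points did not pass (exact permutation p = 0.0857, adjusted 0.114). For GIT1p the means were 29.3% in IPs and 28.5% in inputs (exact permutation p = 0.829, adjusted 0.904). The difference in this share between strains was not tested. Both membrane IPs held more of the second copy than the cytosolic IPs of the same label in SRP72p, a gap also present between the inputs.

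The other pairs were compared in the same way. HHT2 made up 60.5% of H3 footprints in HEL2-FTP IPs and 55.9% in inputs, but 47.8% in GIT1p IPs and 53.2% in GIT1p inputs, so the direction differed between these strains (exact permutation p = 0.0286, adjusted 0.0490, for each). HTA2 made up 34.3% of H2A counts in GIT1p IPs and 37.0% in inputs, and 45.0% in SRP72p IPs and 48.0% in inputs. HHF2 was lower by 1.94 points in GIT1p IPs and by 3.91 points in SRP72p IPs. Each of these 4 differences also reached the smallest exact permutation p of 0.0286, adjusted 0.0490. With GIT1p labels the gaps were very narrow. The highest IP share and the lowest input share were 36.699% and 36.701% for HTA2, and 50.6% and 50.7% for HHF2. With SRP72p labels HHT2 went opposite ways by fraction. Its mean share was 52.0% in cytosolic IPs against 54.2% in inputs, but 57.7% in membrane IPs against 54.4% in inputs. Over both fractions it did not pass (exact permutation p = 0.743, adjusted 0.891). Fractions of a culture may not be independent or exchangeable libraries, so the permutation p-values may be too small. For H3 and H4 the shares include the stretches in which the copies could not be told apart.

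**Figure D4:**
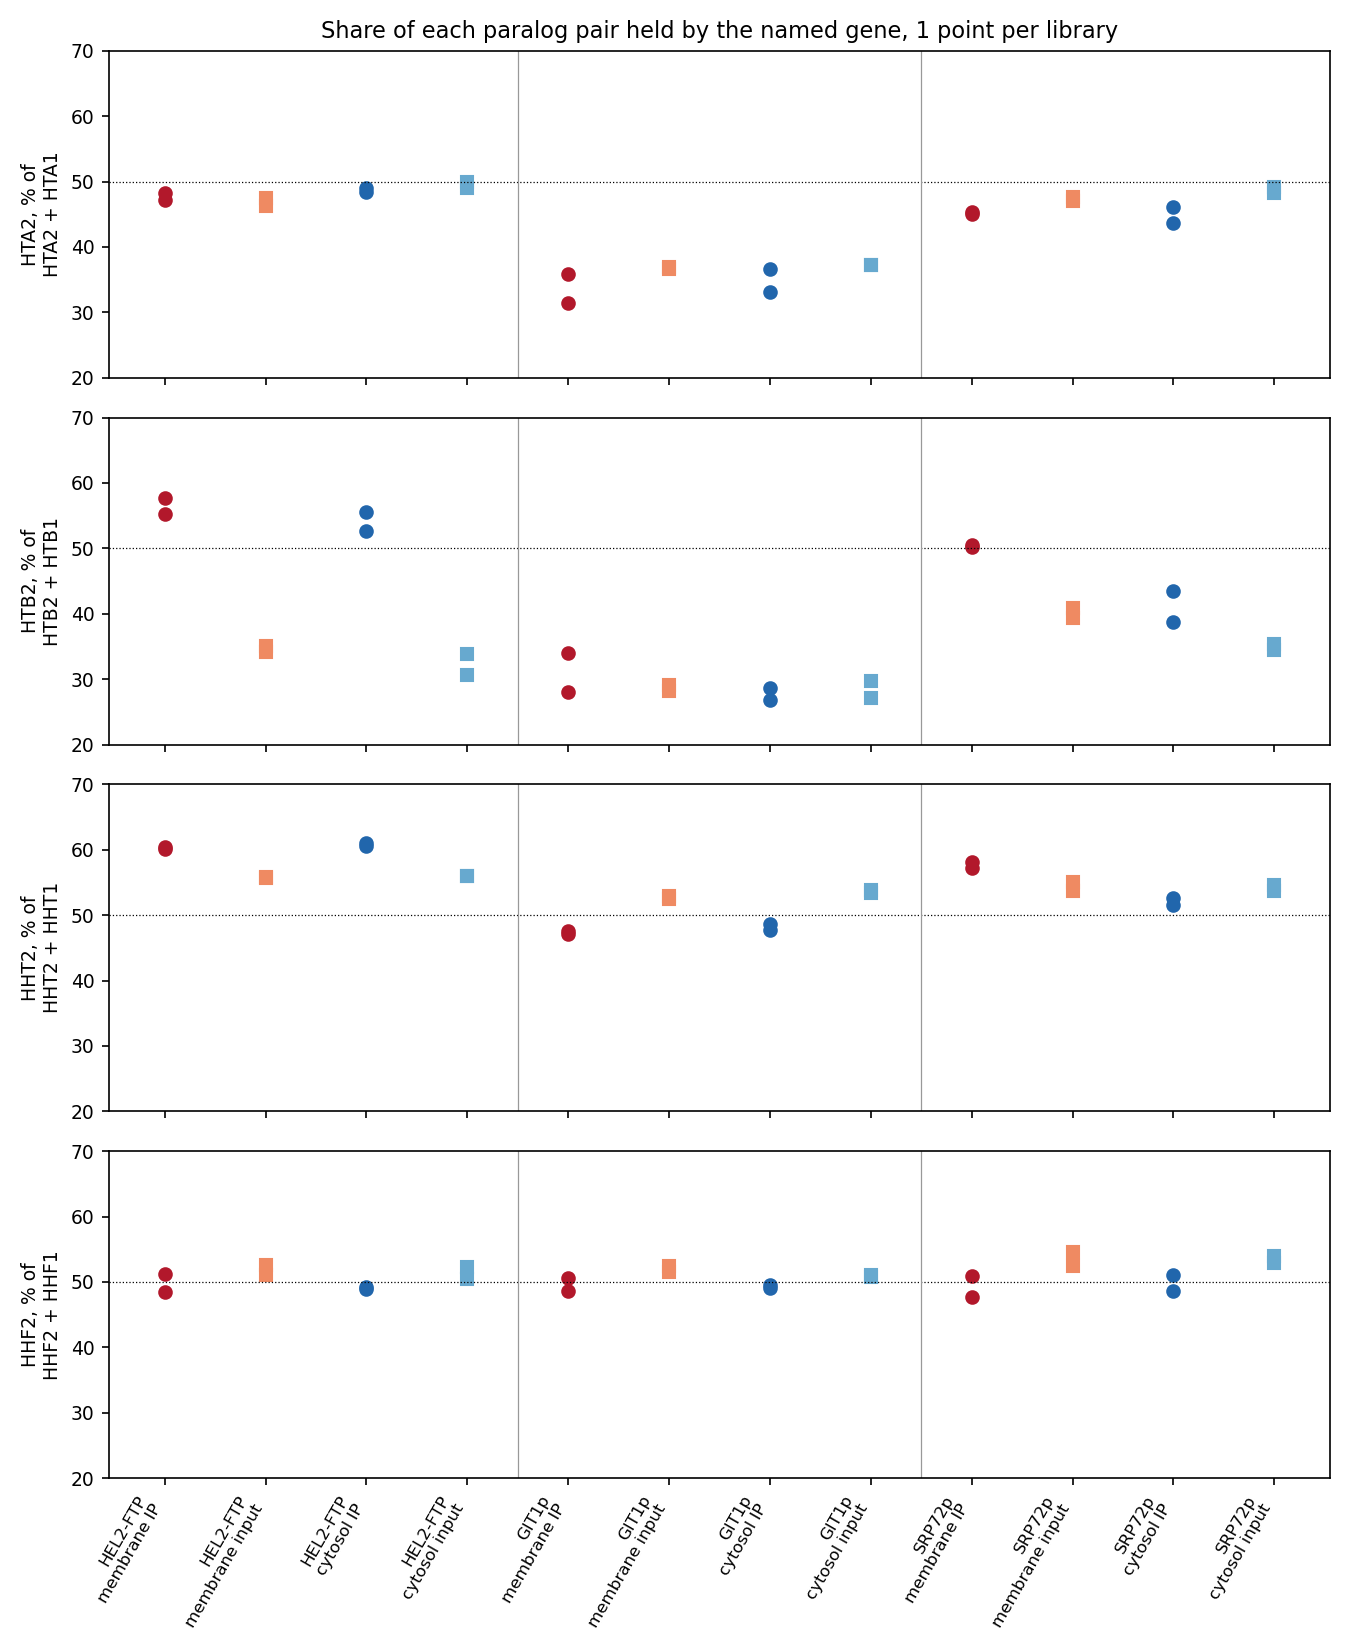
Share of each pair of copies held by HTA2, HTB2, HHT2 and HHF2, in percent of the sum of both genes, 1 point per library (circles, Hel2 IP; squares, input; dotted line, equal shares). HTB2 stands at 52.7% to 57.7% in HEL2-FTP IPs and 30.6% to 35.1% in the inputs, and HTA2 is lower in every GIT1p library than in any other.

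Membrane against cytosolic inputs asked where the histone messages were translated. In HEL2-FTP 7 of 10 were lower in the membrane input, where 33% of genes were lower, and no histone gene was higher. Sizes were small: HTB1 had 428 and 424 RPM in membrane inputs, against 529 and 597 RPM in cytosolic inputs, the largest change at log2 -0.40 (SE 0.07, limma adjusted p = 0.000408). Those of HHT2 (-0.29), HHT1 (-0.28), HTB2 (-0.24), HTA2 (-0.24), HTZ1 (-0.21) and HHO1 (-0.16) followed. HTA1 (-0.09), HHF1 (-0.01) and HHF2 (0.01, or -0.27 with libraries centred on their medians) were not called. The median over all genes was -0.13 and their lower quartile was -0.23, so the histone median of -0.22 stood near that quartile. Of 10 cytosolic marker genes, whose median was -0.08, none was called here. Without cytosolic input replicate 2, or without membrane input replicate 1, 4 of the 7 calls were made.

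With GIT1p labels 0 of 10 histone genes were called between the inputs by edgeR, where 16.7% of genes were called in either direction. All 10 values were between -0.04 and -0.15, 0 had an unadjusted p below 0.05, DESeq2 called 1, and the largest, HHT2, had an edgeR adjusted p of 0.69. With SRP72p labels 1 of 10 was lower, where 4.92% of genes were lower. That gene was HTB1, with 290.5 and 317 CPM in membrane inputs, against 389 and 399.7 CPM in cytosolic inputs (log2 -0.39, SE 0.09, edgeR adjusted p = 0.00652). Without cytosolic input replicate 1 or 2 the SRP72p count was 6 in either case, and without membrane input replicate 2 it was 5. The membrane input replicates of SRP72p differed for most histone genes, HHF1 having 246 and 376 CPM in them, against 311 and 341 CPM in cytosolic inputs.

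Whether the IP/input ratio differed between fractions was tested as an interaction. In HEL2-FTP 1 of 10 was higher at the membrane, where 3.31% of genes were higher. That was HHO1, whose ratio was higher by log2 0.20 (SE 0.07, limma adjusted p = 0.0465), and the call rested on single libraries: leaving out cytosolic input replicate 1 gave 2 calls and leaving out any of the other 7 libraries gave 0. For GIT1p 0 of 10 were called by edgeR and 0 by DESeq2, where edgeR called 18.6% of genes in either direction, and 0 had an unadjusted edgeR p below 0.05. For SRP72p 4 of 10 were higher at the membrane, where 8.47% of genes were higher. Those were both H2A and both H2B genes. HTA2 was higher by 0.70 (SE 0.18) and HTA1 by 0.60 (SE 0.18), with edgeR adjusted p-values of 0.0119 for HTA2 and 0.0291 for HTA1. HTB2 was higher by 0.63 (SE 0.20) and HTB1 by 0.43 (SE 0.13), with edgeR adjusted p-values of 0.0337 for HTB2 and 0.0321 for HTB1. The other 6 had positive values too, from 0.24 (HHT1) to 0.62 (HHF1), without passing. The SRP72p count was 7 without cytosolic input replicate 1, cytosolic IP replicate 2 or membrane input replicate 2. It was 1 without membrane input replicate 1, 2 without membrane IP replicate 1, and 0 without cytosolic IP replicate 1 or membrane IP replicate 2.

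GIT1p against SRP72p compares libraries that differ by label in the promoter of SRP72. In cytosolic inputs 4 of 10 histone genes were lower with GIT1p labels, where 12.4% of genes were lower, and in membrane inputs 2 of 10 were lower, where 6.3% were. The copies on chromosome II, HTA2 and HTB2, were lower in both. HTA2 had 210.0 and 236 CPM in GIT1p cytosolic inputs, against 326 and 376 CPM in SRP72p cytosolic inputs (log2 -0.85, SE 0.13, edgeR adjusted p = 0.00022). In membrane inputs it had 189 and 196 CPM under GIT1p, against 266 and 336 CPM under SRP72p (log2 -0.70, SE 0.13, edgeR adjusted p = 0.0013). HTB2 had 157 and 137 CPM in GIT1p cytosolic inputs, against 205 and 219.5 CPM in SRP72p cytosolic inputs (log2 -0.72, SE 0.14, edgeR adjusted p = 0.00136). Its membrane inputs held 125 and 127 CPM under GIT1p, against 189 and 219 CPM under SRP72p (log2 -0.76, SE 0.14, edgeR adjusted p = 0.00134). The libraries of the labels did not overlap for either gene.

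Their partners on chromosome IV moved less. HTA1 changed by -0.17 (SE 0.13, edgeR adjusted p = 0.354) in cytosolic inputs and by -0.08 (SE 0.13, edgeR adjusted p = 0.714) in membrane inputs. HTB1 fell by 0.28 (SE 0.09, edgeR adjusted p = 0.0354) in cytosolic inputs and changed by -0.01 (SE 0.09) in membrane inputs. As a share of the pair, HTA2 held 37.3% and 37.2% in GIT1p cytosolic inputs, with 95% Wilson intervals of 36.1% to 38.5% and 36.2% to 38.2%. In SRP72p cytosolic inputs it held 49.2% and 48.3%, with intervals of 47.1% to 51.3% and 46.6% to 49.98%. These intervals cover counting error only. HTA2 held 46.3% to 49.9% in the HEL2-FTP libraries, so the GIT1p share stood apart from that of both other strains. HTB2 held 29.7% and 27.1% in GIT1p cytosolic inputs, 34.5% and 35.5% in SRP72p cytosolic inputs, and 33.9% and 30.6% in HEL2-FTP cytosolic inputs.

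H3 and H4 genes on chromosomes II and XIV were not called between the labels. HHT1 had 830.2 and 883 CPM in GIT1p cytosolic inputs, against 698 and 831 CPM in SRP72p cytosolic inputs, and a log2 change of -0.03 (SE 0.14) after TMM scaling. HHF2 came nearest to a call among them, at -0.44 (SE 0.16, edgeR adjusted p = 0.052) in cytosolic inputs. HTZ1 was called in cytosolic inputs (-0.53, SE 0.16, edgeR adjusted p = 0.0242) and not in membrane inputs (-0.15, SE 0.17, edgeR adjusted p = 0.609). The cytosolic count was 2 without either GIT1p cytosolic input replicate, and the membrane count was 4 without SRP72p membrane input replicate 1. HTA2 and HTB2 kept their call with each single input library left out and under each other count model or scaling tried, in both fractions. With each pair of copies summed, the membrane changes were -0.34 for H2A and -0.27 for H2B and were not called. The summed cytosolic changes were called, at -0.46 for H2A (SE 0.13, edgeR adjusted p = 0.015) and -0.42 for H2B (SE 0.11, edgeR adjusted p = 0.00905).

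Lists of cell cycle genes were read between the same inputs. All 6 genes of a list of mitotic genes were higher with GIT1p labels in cytosolic inputs, with a median of 0.91, where 13.4% of all genes were higher, and 5 of 6 in membrane inputs, where 12.0% were. Of 15 S-phase genes, 2 were lower and 0 higher in cytosolic inputs, a share close to the 12.4% of all genes that were lower, POL30, the replication clamp, having the largest fall at -0.49 (SE 0.13, edgeR adjusted p = 0.0116). The part of the cell cycle and of the difference in depth in the histone values was not tested.

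The IP/input ratio was also compared between the labels. In the cytosol 4 of 10 histone genes had a higher ratio with GIT1p labels, where 8.37% of genes were higher. HTB1 was higher by 0.84 (SE 0.13) and HTA2 by 0.80 (SE 0.18), with edgeR adjusted p-values of 0.00117 for HTB1 and 0.013 for HTA2. HTA1 was higher by 0.72 (SE 0.18) and HHO1 by 0.63 (SE 0.17), with edgeR adjusted p-values of 0.0223 for HTA1 and 0.0345 for HHO1. The other 6 ranged from 0.29 (HTZ1) to 0.52 (HHT1) without passing. At the membrane 0 of 10 were called by edgeR, where 2.45% were called in either direction, 1 had an unadjusted p below 0.05 and DESeq2 called 1. The cytosolic count was 1 without SRP72p cytosolic IP replicate 1, GIT1p cytosolic input replicate 1 or GIT1p cytosolic IP replicate 2, and 2 without GIT1p cytosolic IP replicate 1.

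The per-codon values of HEL2-FTP show where along the messages the ribosomes stood. Each read is spread over the codons it covers, so a position is resolved to roughly the length of a footprint. Codon 1 is the start codon here. Averaged over replicates, the H4 genes had their highest level at codon 34 in both IP groups and at codon 36 in both input groups. In single libraries HHF2 kept these positions, while HHF1 peaked at codon 34 in IP replicate 1 and at codon 36 in IP replicate 2 of either fraction. HHF1 reached 10.0 and 9.86 RPM at codon 34 in membrane IPs, 3.72-fold over its mean codon, and 13.8 and 13.9 RPM at codon 36 in membrane inputs, 3.68-fold over its mean codon. The 11 codons around the peak held 29.8% to 32.5% of HHF1 footprints in IPs and 28.9% to 32.1% in inputs. Profiles of the 2 H4 genes correlated across 104 codons with r from 0.98 to 0.99 in the 4 groups, a description that includes the stretches they share.

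H3 genes peaked at codon 77 to 83 in all groups. HHT1 reached 11.3 and 10.0 RPM at codon 79 in cytosolic IPs, against 23.0 and 23.9 RPM at codon 77 in cytosolic inputs. HHT2 showed 11.3 and 10.0 RPM and 23.0 and 23.9 RPM at the same codons, as these lie in the stretch where the copies had equal values. HTB2 peaked at codons 54 and 55 in every library. HTB1 was more variable, peaking at codon 55 in most libraries but at codon 94 in membrane input replicate 2 and at codons 57 and 80 in cytosolic IPs. HTB2 reached 7.93 and 6.70 RPM at codon 55 in cytosolic IPs, against 6.58 and 6.01 RPM at codon 54 in the inputs.

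The H2A genes differed in shape. On average HTA2 was highest between codons 98 and 103 in all groups. HTA1 was highest at codon 49 in both IP groups, with 6.70 and 6.96 RPM at the membrane and 6.21 and 6.84 RPM in the cytosol, at codon 48 in membrane inputs and at codon 98 in cytosolic inputs. HTA2 held a mean of 1.6 RPM at codon 49 in cytosolic IPs, under its mean codon of 1.95 RPM. Over codons 41 to 50 of HTA1, which hold codon 49, the cytosolic ratio of IP to input was 0.83 and 0.85 in the 2 replicates. The HTA1 ratio was 0.94 and 1.01 over codons 51 to 60, and 0.35 and 0.34 over codons 81 to 90. At the membrane the HTA1 ratios over the same stretches, in that order, were 0.66 and 0.64, 0.85 and 0.60, and 0.43 and 0.39. For HTB2 the cytosolic ratio was 2.06 and 1.81 over codons 111 to 120 and 0.55 and 0.65 over codons 31 to 40, so the ratio varied along one message more than the 2 replicates did. HTB1 had cytosolic ratios of 0.39 and 0.38 over codons 111 to 120 and of 0.27 and 0.27 over codons 31 to 40. HHO1 was highest at codons 167 to 169 in membrane libraries and cytosolic IPs and at codon 77 in cytosolic inputs. HTZ1 had no codon above 0.565 RPM on average, and its highest codon differed between replicates in 3 of 4 groups.

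**Figure D5:**
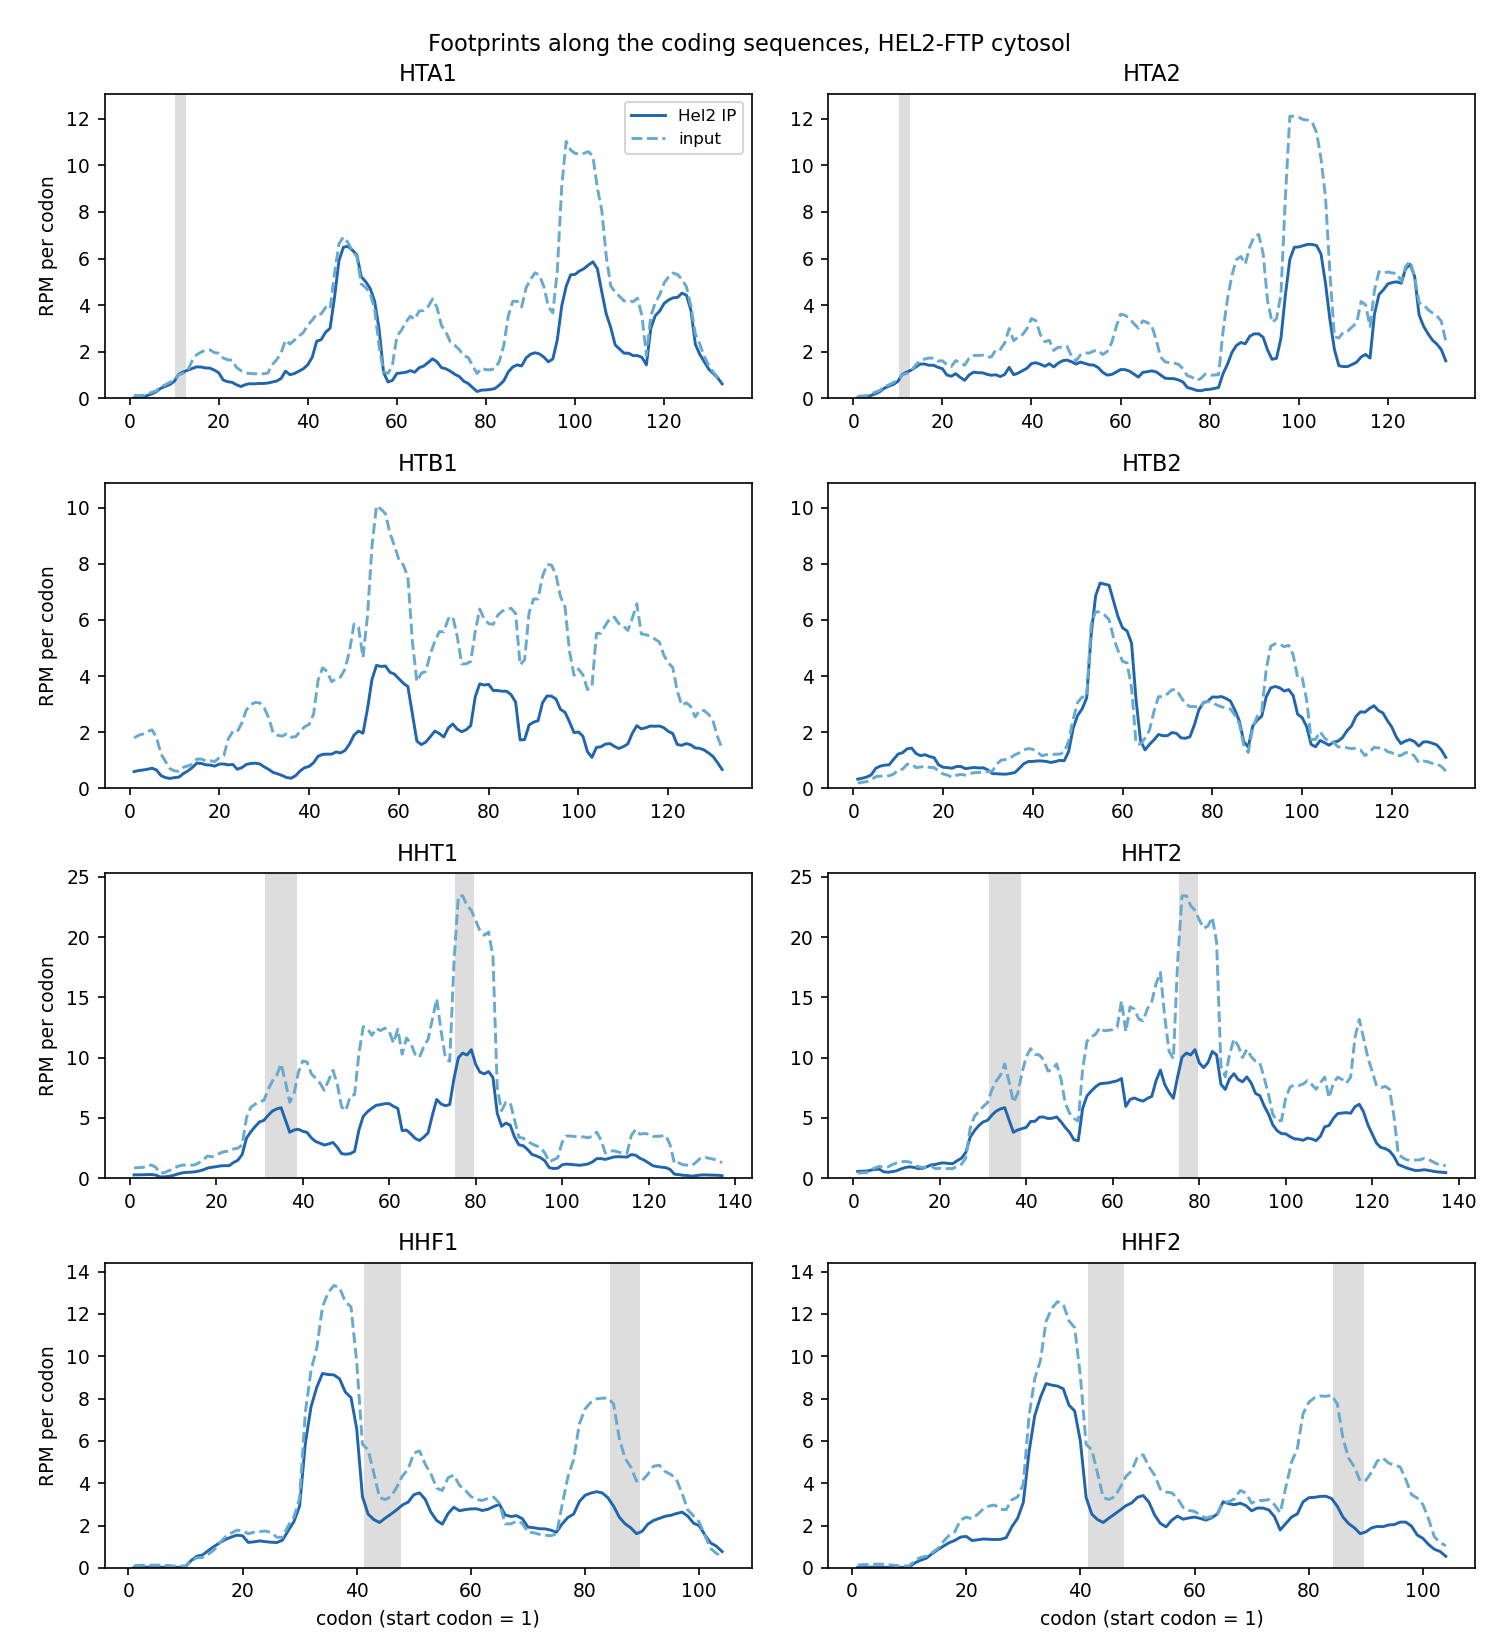
Mean RPM per codon (2 libraries) along the 8 core histone genes in HEL2-FTP cytosol, Hel2 IP (solid) and input (dashed), with codon 1 the start codon; grey marks codons where both copies had values within 1% in all 8 libraries. The IP line lies under the input line over most of each gene other than HTB2, where it lies above over much of the gene, and it passes the input over short stretches elsewhere, such as codons 50 to 56 of HTA1.

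The balance of footprints between the front and the back of each coding sequence, 2 windows of equal length with 5 codons left out at either end, was compared between IP and input. In the cytosol 3 of 10 histone genes were shifted to the front in the IP, where 47.7% of 5293 genes were, and 1 to the back, where 6.42% were. HTA1 had front-to-back ratios of 0.71 and 0.75 in IPs, against 0.54 and 0.55 in inputs (log2 0.41, SE 0.09, limma adjusted p = 0.00223). HTZ1 had 1.31 and 1.55, against 0.95 and 1.135 (log2 0.45, SE 0.15, limma adjusted p = 0.0232), and HHF1 1.18 and 1.24, against 1.01 and 1.05 (log2 0.23, SE 0.08, limma adjusted p = 0.0232). HHO1 went the other way, with 0.50 and 0.47 in IPs, against 0.60 and 0.61 in inputs (log2 -0.31, SE 0.10, limma adjusted p = 0.0202). At the membrane 0 of 10 were called by limma, where 53.5% of genes were called in either direction, 1 had an unadjusted p below 0.05, and values ranged from -0.18 (HHT1) to 0.33 (HTZ1). Of the other genes of 103 to 258 codons, 11.4% were shifted to the front in the cytosolic IP and 16.8% to the back, and their median was -0.03. The cytosolic count was 1 without cytosolic input replicate 1 and 2 without cytosolic IP replicate 2.

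Footprints at the last 5 codons, stop codon included, were set against those before them. HTZ1 had too few there, so 9 genes were tested. In the cytosol 1 of 9 was higher in the IP, where 9.04% of 1162 genes were higher, and 2 were lower, where 31.3% were lower. At the membrane 2 of 9 were lower, where 36.4% of genes were. HHT1 had 0.95 and 1.73 RPM in the stop window in membrane IPs, against 5.82 and 10.2 RPM in the inputs (log2 -1.54, SE 0.38, limma adjusted p = 0.0107). In cytosolic IPs it had 0.89 and 1.47 RPM, against 5.35 and 10.0 RPM in the inputs (log2 -1.48, SE 0.38, limma adjusted p = 0.0138). HHO1 was lower in both fractions (-0.57, SE 0.20, limma adjusted p = 0.0489 at the membrane; -0.67, SE 0.20, limma adjusted p = 0.0278 in the cytosol). HTB2 was the gene that was higher, with 7.57 and 6.99 RPM in cytosolic IPs, against 4.47 and 3.70 RPM in the inputs (log2 0.80, SE 0.27, limma adjusted p = 0.04). The cytosolic calls were 0 without cytosolic input replicate 2 or cytosolic IP replicate 1, and 1 without cytosolic IP replicate 2. The membrane calls were 0 without membrane input replicate 2 and 1 without membrane IP replicate 1.

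Genes that regulate or handle histones were read beside them. Of 11 regulators of histone genes, 9 were higher and 1 lower in HEL2-FTP membrane IPs, and 10 were higher and 1 lower in cytosolic IPs, with median log2 changes of 1.38 and 1.59. Of all genes tested, 45.4% were higher at the membrane and 53.6% in the cytosol, and of genes above 258 codons 56.1% and 66.7% were. SWI4, a transcription factor of the G1 to S transition, had the largest rise in both (2.14 at the membrane, SE 0.06, limma adjusted p = 8.79e-12, and 2.31 in the cytosol, SE 0.06, limma adjusted p = 3.87e-12). ASF1, a chaperone of H3 and H4, had the largest fall (-1.17 and -1.04, SE 0.09 each). Of 16 chaperones and assembly factors, 7 were higher and 4 lower in the HEL2-FTP cytosolic IP, where 53.6% of all genes were higher and 35.6% lower. Their called values ran from 3.11 for SWR1 (SE 0.07), the remodeller that inserts H2A.Z, to -1.46 for CHZ1 (SE 0.11), a chaperone of H2A.Z. Of 15 S-phase genes, 5 were higher and 7 lower in the same comparison, from 0.74 for CDC45 (SE 0.14) to -1.76 for POL30 (SE 0.05). In counts, 5 of the 11 regulators were higher and 1 lower in the GIT1p cytosolic IP (median 0.36), where 36.3% of all genes were higher, and 6 were higher and 2 lower in the SRP72p cytosolic IP (median 0.45), where 37.7% were higher. HIR3, a subunit of the HIR repressor complex, had the largest cytosolic rise among regulators, 1.72 with GIT1p labels and 2.40 with SRP72p labels (SE 0.14 and 0.16).

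CSE4, which encodes the centromeric H3 variant and was not among the 10, had lower levels than the core histones. It gave 10.3 and 12.1 RPM in HEL2-FTP membrane IPs, against 15.7 and 15.1 RPM in the inputs, and 14.7 and 12.7 RPM in cytosolic IPs, against 19.5 and 18.3 RPM in the inputs. Both log2 changes were -0.45 (SE 0.10 each, limma adjusted p = 0.00104 at the membrane and 0.00092 in the cytosol). In counts it was not called between IP and input in either strain. The 3 genes whose log2(CPM + 0.5) over the 16 count libraries was most like the histone mean were TIF35 (Pearson r 0.994), RPL7B (0.993) and NFU1 (0.993), which have 274, 244 and 256 sense codons. This likeness is a description over 8 IP and 8 input libraries, which differ in level for all of these genes.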

How the data were processed

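Per the labels' protocols, RNase I footprints were sequenced from Hel2 IP and input of each fraction. Per the submitters' processing notes, CASAVA 1.8, UMI-tools, Bowtie2 and TopHat were used with sacCer3, and their roles, order and the handling of reads that match several genes are not given in the sources used here. The authors deposited counts per gene for GIT1p and SRP72p, and RPM per codon for HEL2-FTP. Per the file headers, the HEL2-FTP files as deposited also hold an occupancy ratio, the RPM of a codon over 1 value per transcript, and the count files hold RPKM that the authors computed from coding length and a library total. Neither entered a test.

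Counts were tested with edgeR 4.0.16 (quasi-likelihood, TMM, filterByExpr, 16 libraries in 1 fit) and RPM with limma 3.58.1 on log2(RPM + 0.5), keeping genes that averaged 1 RPM or more, in 1 fit of 8 libraries (R 4.3.3). Equal-length and stop windows used log2 ratios with 0.1 RPM added. p-values were adjusted by Benjamini-Hochberg over all genes tested, and called means below 0.05. Fits had no replicate block, since the labels do not say that numbers pair libraries. DESeq2 1.42.0, other scalings and filters, and each library left out, were alternatives. The methods were tested on simulated data. CPM were computed from the counts of each library total. The genes and lists were chosen with earlier results of these data known. All 10 histone genes were named, and from each list the called gene with the largest rise and fall. Symbols were matched through RefSeq for 6008 of 6696 and 5988 of 6663 identifiers. Sequences were not used here.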

Additional observations from a re-analysis of the deposited data

Results flagged for a closer look

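For 9 results a test of the difference itself passed. In HEL2-FTP the IP/input ratio of HHO1 was higher at the membrane than in the cytosol by log2 0.20. With SRP72p labels the ratio was higher at the membrane by 0.60 for HTA1, 0.70 for HTA2, 0.43 for HTB1 and 0.63 for HTB2. In the cytosol the ratio was higher with GIT1p than with SRP72p labels by 0.72 for HTA1, 0.80 for HTA2, 0.84 for HTB1 and 0.63 for HHO1. The SRP72p cytosolic IPs and inputs enter both of the last 2 comparisons, which therefore share libraries.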

How the results depend on the processing

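Over 201 recomputed counts of called histone genes, 145 stayed within 1.5 times the reported count, and of 2150 values of single genes 1939 kept their direction and side of the threshold, 97 gained and 109 lost a call and 5 changed sign. The causes of the changes given here were not tested, beyond fewer libraries or genes where some were left out. With libraries centred on their medians, HTB2 was at -0.42 in the HEL2-FTP cytosolic IP and -0.13 in the membrane IP, HHF2 at -0.27 between HEL2-FTP inputs, and 4 genes were called for the HEL2-FTP ratio between fractions. With pairs of copies summed, H2B was at -0.71 in the HEL2-FTP cytosolic IP and -0.55 in the membrane IP. DESeq2's size factors in edgeR gave 5 calls between SRP72p inputs, 7 for the SRP72p ratio between fractions and 1 between GIT1p inputs. DESeq2 itself gave 7, 7 and 1 for these, 8 and 4 for GIT1p against SRP72p in cytosolic and membrane inputs, and 1 for the membrane ratio. Library size alone gave 1 for the SRP72p ratio between fractions, 2 for GIT1p against SRP72p cytosolic inputs and 1 for their cytosolic ratio, and no filter on low counts gave 2 for each of these ratios. DESeq2's size factors moved the median of all genes by -0.16 (SRP72p inputs) to 0.22 (GIT1p membrane IP), and library size alone by -0.44 (GIT1p membrane IP) to 0.19 (GIT1p against SRP72p cytosolic inputs). For the stop window, other bounds gave 6 calls in each fraction and at least 5 RPM per window gave 1 in each. Same-numbered libraries deviated together by r from -0.44 to 0.42 over 11 comparisons of 2 pairs each. The highest were HEL2-FTP IP against input, at 0.42 in the cytosol and 0.28 at the membrane. The lowest was between strains, GIT1p against SRP72p membrane inputs. From 2 pairs each, pairing was not established. A replicate block gave 7 calls for the SRP72p ratio between fractions and 5 and 8 for the cytosolic and membrane stop windows, and moved no other count by over 1.5 times. With GIT1p membrane input numbers crossed, an alternative chosen after seeing the data, the block gave 2 calls against SRP72p membrane inputs. Leaving out each library in turn gave 4 to 6 calls for HEL2-FTP inputs, 0 to 2 for the HEL2-FTP ratio, 1 to 6 for SRP72p inputs and 0 to 7 for the SRP72p ratio. For GIT1p against SRP72p it gave 2 to 3 in cytosolic inputs, 2 to 4 in membrane inputs and 1 to 5 for the cytosolic ratio. For the equal-length windows in the cytosol it gave 1 to 4, and for the stop window 0 to 2 in the cytosol and 0 to 2 at the membrane. Depth limits HTZ1 most, at 42 to 391 counts per library.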
